A study of Mus musculus with 28 samples.

Results

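The response of wild-type induced regulatory T cells (iTreg cells) to DFMO was followed in 8 RNA-seq libraries of 28, namely the DFMO and ctrl cultures of the same 4 C57BL/6 mice, paired by animal number. Naive CD4+CD44-CD62L+CD25- T cells from the spleen were stimulated for 68 h with anti-CD3 on the plate and anti-CD28, each at 1 µg/ml, with TGF-beta 1 at 2 ng/ml as the only added cytokine. DFMO cultures also received the drug at 100 µM, and ctrl cultures are those without it. These libraries are set beside 2 other sets of the same layout: WT cells of the same 4 mice cultured toward the non-pathogenic Th17 fate (Th17n, 8 libraries; TGF-beta 1 at 2 ng/ml plus IL-6 at 25 ng/ml), and iTreg cells of 3 JMJD3 fl/fl CD4cre mice (KO, 6 libraries), in which Cre driven by the Cd4 promoter deletes a floxed JMJD3 gene in T cells. The labels give the animals' genotype and strain but no age or sex. All cultures were sorted for live cells only, so an iTreg library holds every cell of its culture, with and without Foxp3 protein.

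Polyamines (putrescine, spermidine and spermine) are small cations that cells make from ornithine and from decarboxylated S-adenosylmethionine. DFMO blocks ornithine decarboxylase, the enzyme that makes putrescine. Cells adjust polyamine enzymes at the level of transcription, translation and protein decay, and spermidine is also the donor of hypusine, an amino acid found in the translation factor eIF5A. In activated T cells polyamine synthesis rises with growth and division. TGF-beta with T cell receptor stimulation induces Foxp3, the transcription factor that defines regulatory T cells.

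All 20891 genes in the files were considered, and 10985 passed the filter on low counts. The 8 libraries held 2792847 to 4753768 estimated counts in ctrl and 3233025 to 4066614 in DFMO. Levels are given in CPM, counts scaled to a common total with TMM library factors, and differences as log2 fold changes ± standard error of DFMO against ctrl, with p-values adjusted by Benjamini-Hochberg from edgeR's quasi-likelihood test with animal as a block. A gene is said to rise or fall where the adjusted p was under 0.05. The replicates are cultures from 4 animals. The block of an animal is shared by its iTreg and Th17n libraries, so animal differences particular to iTreg cultures stay in the spread.

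The response was broad. Expression rose for 2663 genes and fell for 2795, together 49.7% of those tested (24.2% higher and 25.4% lower), and 1565 of them changed at least 2-fold, 584 up and 981 down. Of the 5458 genes called, 5138 moved the same way in all 4 animals and 3809 had ctrl and DFMO libraries that did not overlap. Both counts are of genes chosen by a test on the same libraries, so they are not separate support for the calls. Neither was taken over all genes tested. Along the first principal component (53.5% of variance) DFMO libraries stood apart from ctrl libraries, and the second (13.3%) separated animals 1 and 2 from animals 3 and 4. Every count of list members below is to be read against these shares. The balance of rises and falls depended on the scale: on TPM, where each library is a share of its transcripts, 1417 genes rose and 3429 fell and the median gene shifted by -0.19 on the log2 scale, while with library medians aligned 2620 rose and 1812 fell. In the counts the median shift was -0.05. GC content moved with the change as well: the tenth of genes with the lowest GC (31.9% to 42.7%) had a median log2 fold change of -0.28 and the tenth with the highest (58.0% to 71.1%) of 0.10, and its part in the results was not tested beyond a GC-corrected fit, in which 2889 genes rose and 2695 fell.

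**Figure D1:**
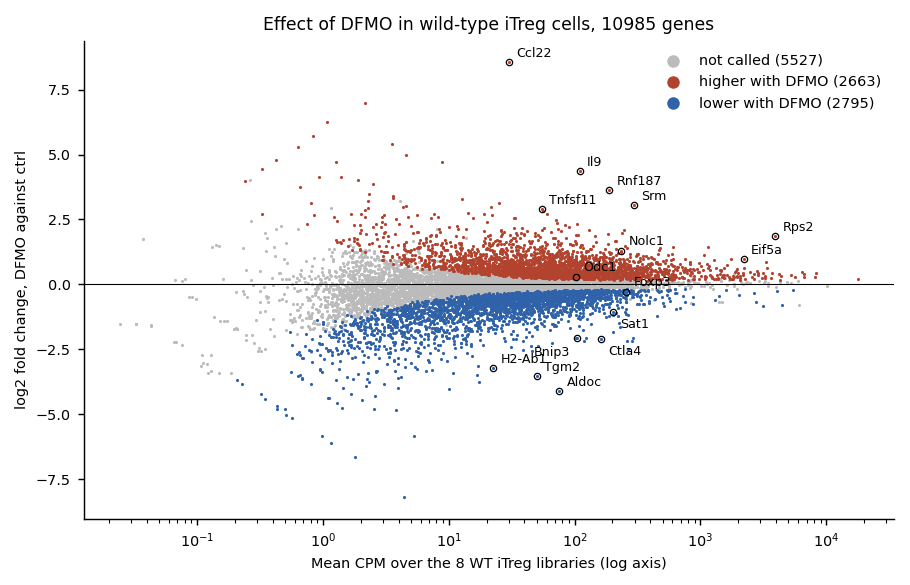
Log2 fold change of DFMO against ctrl in WT iTreg cells (vertical) against mean CPM over the 8 libraries (horizontal, log axis). Each point is a gene tested, coloured by its call (2663 higher in red, 2795 lower in blue, the others grey), and circled genes are named in the text, with Ccl22, Il9, Rnf187 and Srm far above 0 and Aldoc and Tgm2 far below it.

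The genes of polyamine metabolism were rearranged by step. Of 25 listed genes 18 were tested, 9 rose and 6 fell, with a median of 0.30 against -0.05 for all genes. On TPM 4 rose and 6 fell. Of the 9 tested genes of synthesis 6 rose and 1 fell, whereas the 3 tested genes of catabolism all fell. Srm, the spermidine synthase gene (chromosome 4, 148591503 to 148594993, plus strand, GRCm38), stood at 60.3, 56.5, 74.5 and 63.8 CPM in ctrl animals 1 to 4 and at 541, 538, 696 and 344 CPM with DFMO. Every DFMO library was far above every ctrl library, and animal 4 had the smallest rise (3.05 ± 0.14, edgeR adjusted p = 6.17e-15). Amd1 encodes S-adenosylmethionine decarboxylase, which supplies the aminopropyl groups. It went from 148, 141, 150 and 116 CPM to 356, 407, 276 and 287 CPM (1.24 ± 0.10), again without overlap. Amd1 has a close copy, Amd2, so the division of reads between them is uncertain. Mat2a, which encodes the enzyme making S-adenosylmethionine itself, rose 2.89-fold (1.53 ± 0.11).

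Odc1 (chromosome 12, 17544794 to 17551505, plus strand), the gene of the enzyme that DFMO blocks, was at 76.5, 107, 84.2 and 98.9 CPM in ctrl and at 115, 119, 120 and 97.0 CPM in DFMO. Animals 1 to 3 were higher with DFMO and animal 4 was not, and the gene was not called (0.30 ± 0.14, edgeR adjusted p = 0.0651). The Odc1 call turned on single libraries and on the fit: it was called without ctrl replicate 2 (0.45) or DFMO replicate 4 (0.43). It was also called on the 8 iTreg libraries alone (0.30) and with a block per animal and differentiation (0.31), the 2 fits that pair ctrl and DFMO within iTreg cultures. On TPM Odc1 was at -0.01. Sms, the spermine synthase gene, rose by 0.29 ± 0.10, from 76.3 to 86.8 CPM over ctrl libraries to 92.6 to 115 CPM over DFMO libraries. That call of Sms was lost without DFMO replicate 4 (0.23), ctrl replicate 1 (0.24) or ctrl replicate 4 (0.27), and on TPM.

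Genes that break polyamines down moved the opposite way. Sat1, which encodes the acetyltransferase that marks spermidine and spermine for export or oxidation, was at 242, 293, 253 and 310 CPM in ctrl and at 122, 130, 133 and 138 CPM in DFMO (-1.07 ± 0.08). The DFMO values lay close together and below all ctrl values. The spermine oxidase gene Smox fell from 14.5 to 34.5 CPM in ctrl to 6.62 to 11.8 CPM (-1.27 ± 0.17). The acetylpolyamine oxidase gene Paox fell by 0.90 ± 0.18.

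Among the genes that control ornithine decarboxylase, the antizyme genes fell. Antizymes bind the enzyme and send it to the proteasome. Oaz2 was at 49.9, 78.9, 52.6 and 81.2 CPM in ctrl and at 12.5, 17.8, 12.3 and 22.6 CPM in DFMO (-2.01 ± 0.12). In each treatment animals 2 and 4 were above animals 1 and 3, and the groups did not overlap. Oaz1 fell 1.58-fold (-0.66 ± 0.08), from 806 to 1023 CPM to 510 to 710 CPM. Azin1, which encodes the inhibitor of antizyme, rose by 0.43 ± 0.15 with overlapping groups. Leaving out any of ctrl replicates 1 (0.42) and 4 (0.33) or DFMO replicates 1 (0.40) and 2 (0.19) ended that call of Azin1, as did TPM.

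**Figure D2:**
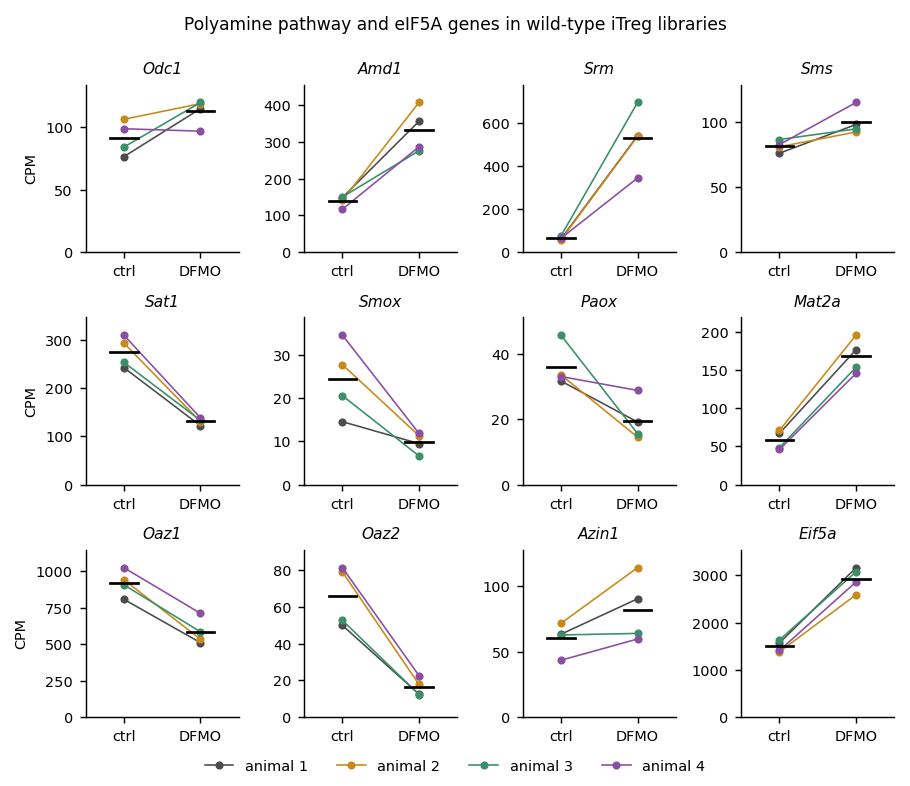
CPM (linear axes from 0) of 12 polyamine and hypusine pathway genes in the 8 WT iTreg libraries, with a coloured line joining ctrl and DFMO of the same animal and a black bar at each group's mean. Srm lines climb from under 75 CPM to 344 CPM or more in all 4 animals, Sat1 and Oaz2 lines descend, and Odc1 rises in animals 1 to 3 and not in animal 4.

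Hypusine genes went up. Of 4 tested genes 3 rose and 0 fell, with a median of 0.66. Eif5a, the gene of the protein that carries hypusine, went from 1572, 1384, 1636 and 1412 CPM to 3163, 2591, 3076 and 2862 CPM (0.96 ± 0.06, edgeR adjusted p = 3.86e-13). The lowest DFMO library was well above the highest ctrl library. Eif5a has processed pseudogenes, which makes its share of reads less certain. Dohh, the hydroxylase gene of the last step, rose by 0.89 ± 0.10, and Dhps, the synthase gene of the step before, by 0.43 ± 0.14. Dhps overlapped between groups, and its call was lost without animal 4 (0.37) and on TPM (0.12).

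The largest rises outside the polyamine genes belonged to unlike functions. Only genes with a mean of at least 10 CPM and the same direction in all animals were ranked. Rnf187, which encodes a RING finger protein, was at 30.3, 31.4, 29.7 and 16.0 CPM in ctrl and at 416, 408, 483 and 91.8 CPM in DFMO (3.62 ± 0.26). Animal 4 was the lowest in both treatments. Pdf, the gene of the mitochondrial peptide deformylase, rose 9.84-fold and Mgat2, an N-glycan branching enzyme gene, rose 8.67-fold. Phlda3, a p53-induced inhibitor of AKT signalling, rose 7.95-fold, and Nppc, which encodes C-type natriuretic peptide, rose from 0 to 8.71 CPM over ctrl libraries to 12.3 to 45.9 CPM.

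Of the 584 rises of at least 2-fold, 242 were smallest in animal 2, 183 in animal 4, 83 in animal 1 and 76 in animal 3. The median log2 rise of these genes was 1.33, 1.19, 1.36 and 1.24 in animals 1 to 4. Medians of the falls of at least 2-fold were -1.43, -1.26, -1.39 and -1.33. Medians were close among the 4 animals, although Rnf187, Phlda3 and Mgat2 were lowest in animal 4 with DFMO.

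Among the largest falls, several were genes of intermediary metabolism. Aldoc encodes a brain-type aldolase. It was at 162, 106, 127 and 178 CPM in ctrl and at 8.44, 4.75, 6.62 and 13.6 CPM in DFMO (-4.11 ± 0.17, edgeR adjusted p = 6.32e-16). Haao, an enzyme gene of tryptophan catabolism, fell 11.2-fold, and Ppp1r3b, a regulator of glycogen synthesis, fell 8.76-fold. Selenbp1, a methanethiol oxidase gene, fell from 15.4 to 54.5 CPM to 0.256 to 3.82 CPM.

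Other large falls were in signalling and matrix genes. Acvrl1, which encodes the TGF-beta family receptor ALK1, went from 23.7, 10.1, 23.4 and 18.1 CPM to 0, 1.48, 0.902 and 2.43 CPM (-4.02 ± 0.39). Tgm2, the tissue transglutaminase gene, went from 91.3, 87.0, 62.1 and 129 CPM to 4.35, 5.94, 14.1 and 7.30 CPM (-3.52 ± 0.22). In neither gene did the groups overlap. The laminin gene Lama5 fell 6.72-fold, the beta-arrestin gene Arrb1 fell 6.15-fold and the angiopoietin-like gene Angptl6 fell 5.97-fold.

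The regulatory T cell programme fell more often than it rose. Of 30 tested genes 15 fell and 6 rose, with a median of -0.25. Foxp3 (chromosome X, 7573644 to 7595245, plus strand) was at 216, 339, 236 and 335 CPM in ctrl and at 190, 219, 213 and 309 CPM in DFMO. It was lower with DFMO in all 4 animals, but the groups overlapped and the gene was not called (-0.28 ± 0.14, edgeR adjusted p = 0.103). The Foxp3 difference passed with a block per animal and differentiation (-0.27) and on the 8 iTreg libraries alone (-0.28), the fits that pair ctrl and DFMO within iTreg cultures. It also passed without DFMO replicate 4 (-0.39), with no filter (-0.27) and on TPM (-0.49). Il2ra, the IL-2 receptor alpha chain gene, was at 797 to 1003 CPM in ctrl and 852 to 1055 CPM in DFMO (0.06 ± 0.05, edgeR adjusted p = 0.360); on TPM Il2ra was called lower (-0.34) and with a GC correction higher (0.17). Bulk RNA does not tell fewer cells of a type from less RNA per cell.

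Genes for effector molecules of regulatory T cells were among those that fell. Ctla4, the inhibitory receptor gene, stood at 253, 268, 259 and 273 CPM in ctrl and at 59.6, 72.7, 55.9 and 59.4 CPM in DFMO (-2.08 ± 0.10). The 2 sets of values were tight and far apart. Tigit, another inhibitory receptor gene, fell from 19.2 to 42.2 CPM to 5.37 to 9.38 CPM (-2.15 ± 0.26). Lag3 fell by 1.22 ± 0.15 and Nt5e, the CD73 ecto-nucleotidase gene, fell by 1.34 ± 0.16. The costimulatory receptor genes Tnfrsf9 (4-1BB) and Tnfrsf18 (GITR) fell 4.14-fold and 1.87-fold, and Lrrc32, which encodes the surface receptor for latent TGF-beta, fell 2.31-fold.

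Gzmb, the granzyme B gene, was at 340, 68.6, 245 and 112 CPM in ctrl and at 58.8, 12.2, 93.8 and 13.9 CPM in DFMO (-2.18 ± 0.27). In each treatment animals 1 and 3 were above animals 2 and 4, so the groups overlapped although the gene fell in every animal. Ikzf2, the Helios gene, fell by 0.44 ± 0.16. That call of Ikzf2 was lost without ctrl replicate 1 (-0.23) or 3 (-0.36), without DFMO replicate 1 (-0.43) or 3 (-0.38), with DESeq2, with a GC correction and on TPM. Ikzf2 was at 85.7 and 89.7 CPM in the ctrl libraries of animals 1 and 3 and at 40.7 to 54.7 CPM in the other 6.

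Some genes of the same programme rose. Nrp1, the neuropilin 1 gene, was at 46.0, 101, 52.9 and 117 CPM in ctrl and at 182, 191, 193 and 198 CPM in DFMO (1.35 ± 0.15). The ctrl libraries differed by animal and the DFMO libraries hardly did. Socs2, a feedback inhibitor of cytokine signalling, rose 2.06-fold, and the chemokine receptor gene Ccr4 rose 1.57-fold. Il10 had 0 counts over the 4 ctrl libraries and 12 counts over the DFMO libraries, in animals 1 and 3 only. Against a floor of 3 counts over the group, Il10 was at least 4.71-fold higher, and its call was lost on TPM with a pseudocount of 1.

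Cytokine genes rose. Of 14 tested T helper cytokine genes 8 rose and 1 fell, with a median of 0.86, and on TPM 7 rose and 0 fell. Il9 (chromosome 13, 56479277 to 56482246, minus strand) was at 4.60, 16.4, 2.89 and 16.4 CPM in ctrl and at 181, 233, 193 and 229 CPM in DFMO (4.36 ± 0.35). Animals 2 and 4 were above animals 1 and 3 in each treatment, and every DFMO library lay far above the ctrl range. Il2, the T cell growth factor gene, went from 23, 18.6, 13.7 and 9.76 CPM to 71.3, 45.1, 68.0 and 44.1 CPM (1.77 ± 0.36). Tnf rose 1.82-fold, Ltb, which encodes lymphotoxin beta, rose 2.27-fold and Lif, a cytokine gene of the IL-6 family, rose 2.05-fold.

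Ifng, the interferon gamma gene, was at 7.75, 0.395, 16.8 and 0.348 CPM in ctrl and at 61.9, 0.891, 76.4 and 12.2 CPM in DFMO (2.66 ± 0.44). It was higher with DFMO in every animal, and animals 1 and 3 were the highest in both treatments. DESeq2 did not call Ifng (2.87, DESeq2 adjusted p = 0.319). The Th17 cytokine genes were barely expressed: Il17a had counts in ctrl replicate 2 only (0.988 CPM), and Il23r, the IL-23 receptor gene, in ctrl replicate 3 only (0.263 CPM). Il17f, at 0 to 11.1 CPM in ctrl, fell by 2.24 ± 0.71, a call lost without the block (-2.29), without ctrl replicate 4 (-1.56), without animal 4 (-1.95) and on TPM.

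Of 6 tested chemokine genes 3 rose and 1 fell. Ccl22, a ligand of CCR4, was at 0.484, 0, 0 and 0 CPM in ctrl and at 13.0, 114, 16.2 and 97.7 CPM in DFMO. Its counts went from 2 to 771, a ratio of 454 with a 95% counting interval of 125 to 3752, which covers counting error only. With DFMO, animals 2 and 4 had the most Ccl22. Ccl3, an inflammatory chemokine gene, went from 31.7, 15.8, 27.1 and 20.2 CPM to 134, 85.2, 145 and 125 CPM (2.37 ± 0.16), and the related Ccl4 rose 1.80-fold. Ccl5 fell, from 118 counts over ctrl libraries to 3 over DFMO libraries.

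**Figure D3:**
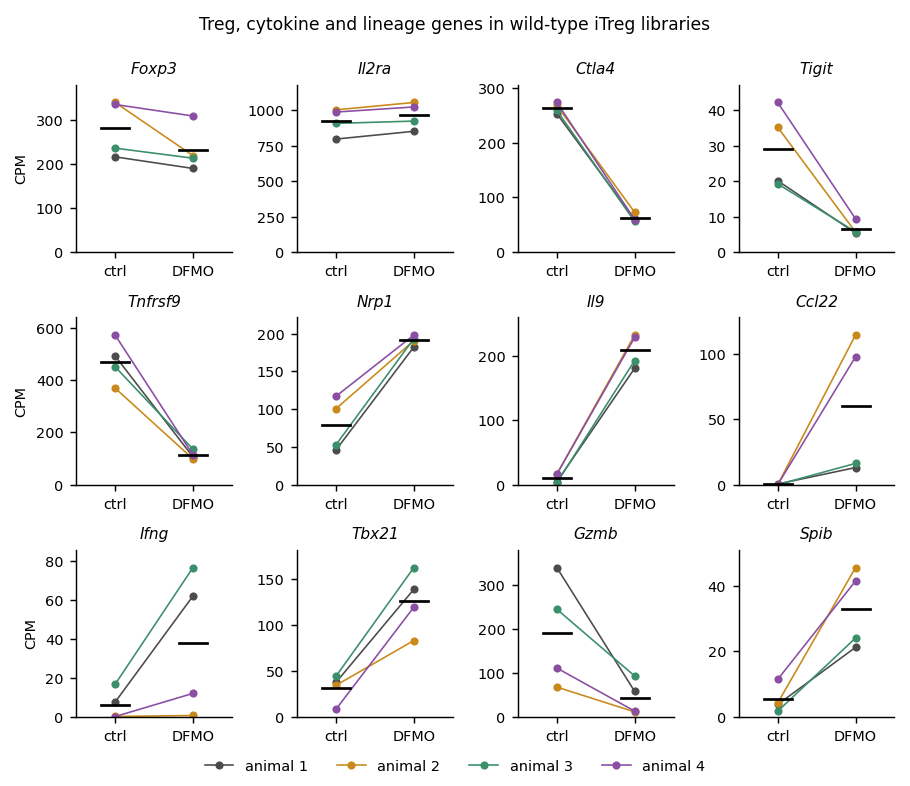
CPM (linear axes from 0) of 12 regulatory T cell, cytokine, chemokine and lineage genes in the 8 WT iTreg libraries, with a coloured line joining the libraries of each animal and a black bar at each group's mean. Ctla4 and Tnfrsf9 fall and Il9 and Tbx21 rise in all 4 animals, whereas the Foxp3 groups overlap.

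Among 24 tested lineage factors 8 rose and 6 fell, with a median of 0.02. Tbx21, which encodes the Th1 factor T-bet, was at 37.8, 34.6, 44.5 and 8.71 CPM in ctrl and at 139, 83.1, 162 and 119 CPM in DFMO (2.05 ± 0.29). Spib, an ETS family factor gene, went from 3.87, 4.35, 1.84 and 11.5 CPM to 21.2, 45.4, 24.1 and 41.4 CPM (2.72 ± 0.29). Neither gene overlapped between groups. Batf3, an AP-1 family factor gene, rose 2.84-fold.

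Other factor genes went down. Rora, which encodes a nuclear receptor of the ROR family, fell 2.20-fold, the chromatin organiser gene Satb1 fell 1.76-fold and Tox fell by 0.56 ± 0.14. Myc, the growth factor-induced regulator of growth and of Odc1, rose by 0.56 ± 0.08, from 414 to 456 CPM in ctrl to 554 to 690 CPM.

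Of 37 tested genes of cytokine receptors and STAT signalling 15 fell (40.5%), 8 rose and 14 were not called, with a median of -0.12, and with library medians aligned 9 fell. Among the 19 receptor genes of this list 7 fell and 4 rose. Ifngr1, a chain of the interferon gamma receptor, was at 172, 155, 189 and 146 CPM in ctrl and at 41.2, 43.9, 36.4 and 34.8 CPM in DFMO (-2.08 ± 0.10). Il12rb2, the inducible chain of the IL-12 receptor, fell 5.15-fold and Stat4, the factor it signals through, fell 2.85-fold. Socs1 and the common gamma chain gene Il2rg were among those that rose, by 0.77 ± 0.09 and 0.48 ± 0.06.

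Of 22 tested genes of the TNF superfamily 11 fell and 4 rose (2 without DFMO replicate 2). Fasl, the death ligand gene, fell 3.40-fold and the TNF receptor family gene Tnfrsf26 fell 2.67-fold. Tnfsf11, the RANKL gene, ran against this: it stood at 9.44, 18.2, 11.1 and 11.5 CPM in ctrl and at 90.8, 166, 106 and 25.0 CPM in DFMO (2.90 ± 0.35). Animal 4 had the lowest DFMO value, still above every ctrl library.

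The TGF-beta response, the signal these cultures were given, did not move as a block. Of 21 tested genes 4 rose and 6 fell, with a median of -0.13, and on the 8 iTreg libraries alone 4 rose and 2 fell. Without DFMO replicate 2, 2 rose. Bhlhe40 fell 1.82-fold and the feedback inhibitor gene Pmepa1 rose 2.01-fold. By role, of the 5 tested ligand and receptor genes 2 rose and 1 fell, and of the 16 signal and target genes 2 rose and 5 fell. Tgfb3, a TGF-beta ligand gene, had 52 counts over the ctrl libraries and 0 over the DFMO libraries. Against a floor of 3 counts over the group, Tgfb3 was at least 14.7-fold lower.

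In T cell receptor signalling, 17 of 34 tested genes fell and 7 rose, with a median of -0.21. Several of those that fell are brakes on the signal: Ptpn22, a phosphatase gene, went from 130 to 189 CPM in ctrl to 42.8 to 60.3 CPM (-1.58 ± 0.12), Cblb, a ubiquitin ligase gene, fell 2.20-fold and Dgka, a diacylglycerol kinase gene, fell 1.58-fold. Cd28, the costimulatory receptor gene, fell 2.00-fold. By role, 8 of the 13 inhibitor genes of the list fell and 3 rose. Of the 7 genes of the receptor complex 4 fell and 1 rose, and of the 14 kinases and adaptors 5 fell and 3 rose. Of 31 immediate early and calcium response genes 11 rose and 10 fell, and fewer rose than fell without ctrl replicate 2 (8 and 10) or DFMO replicate 2 (8 and 9). Dusp2, a phosphatase gene induced by activation, went from 11.1, 16.8, 17.4 and 8.36 CPM to 111, 119, 131 and 31.6 CPM (2.83 ± 0.25), while Dusp4, of the same family, fell 2.27-fold. Ier2 and Nfatc2 rose, and Ier3 and the activation marker gene Cd69 fell. Among 10 tested inhibitory receptor genes 3 rose and 4 fell: Pdcd1, the PD-1 gene, rose 1.71-fold while Ctla4, Tigit and Lag3 fell as given above.

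Genes of MHC class II fell. Of 8 tested genes 7 fell and 0 rose, with a median of -1.80, and on TPM 8 fell. H2-Ab1, a beta chain gene, was at 44.5, 36.8, 33.4 and 49.8 CPM in ctrl and at 6.39, 2.97, 2.41 and 5.21 CPM in DFMO (-3.23 ± 0.20). Cd74, the invariant chain gene, went from 90.5, 130, 122 and 167 CPM to 42.2, 53.4, 55.9 and 72.3 CPM (-1.18 ± 0.17). Neither gene overlapped between groups. H2-Eb1 fell 4.59-fold, and the peptide loading genes H2-Oa, H2-Ob and H2-DMb2 fell 3.21-fold, 3.91-fold and 2.78-fold.

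These class II genes are best known from antigen-presenting cells, so markers of such cells were read beside them. The 9 B cell markers, 8 of them in the files, summed to 7.10 to 18.1 CPM in ctrl and 9.32 to 14.8 CPM in DFMO. The 10 macrophage and monocyte markers, 9 of them in the files, summed to 3.95 to 8.71 CPM and 1.39 to 5.64 CPM, with C1qa, C1qb and C1qc at 0 in all 8 libraries. The 9 dendritic cell markers summed to 937 to 1202 CPM and 744 to 829 CPM, nearly all of it Ccr7, which T cells also express. Itgax, Clec9a and Cd209a were at 0 in all 8. The 1 macrophage and monocyte marker tested was called lower (-1.27), a call lost on TPM (-0.94) and without animal 4 (-0.92). Of 3 tested B cell markers 0 were called, and of 3 tested dendritic cell markers 1 rose and 1 fell. The 7 T cell markers in the files summed to 2756 to 3213 CPM in ctrl and 2666 to 3337 CPM in DFMO. The 7 NK cell markers summed to 2.90 to 4.47 CPM in ctrl and 5.64 to 11.0 CPM in DFMO, without overlap. Of these, 5 were at 0 in all 8 libraries, among them Ncr1, Klrb1c and Tyrobp, and 2 were tested, both named after their values were seen. Eomes, which T cells also express, was called higher (1.45 ± 0.42), and Klre1, with 6 counts over ctrl libraries and 0 over DFMO libraries, was called lower. The Klre1 call was lost without DFMO replicate 1 (-3.74) or 4 (-3.43) or ctrl replicate 3 (-3.34), with DESeq2, with no filter and on TPM. The part of such cells in the results was not tested.

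Interferon-stimulated genes fell more often than they rose, 10 of 21 tested against 2, with a median of -0.78. Without ctrl replicate 2, 5 of them fell. Ifi27l2a was at 232, 679, 239 and 680 CPM in ctrl and at 68.8, 91.7, 65.9 and 84.1 CPM in DFMO (-2.46 ± 0.21). In ctrl, animals 2 and 4 stood well above animals 1 and 3, and the DFMO libraries were close together. Oas3, an antiviral enzyme gene, had the same layout, 10.7, 31.0, 8.42 and 29.6 CPM in ctrl against 1.80 to 3.58 CPM in DFMO. Stat2, a transducer of type I interferon signals, fell 2.17-fold. Irf1 was an exception, rising from 159 to 227 CPM in ctrl to 390 to 493 CPM (1.14 ± 0.22).

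The promoters of these genes were read for the interferon-stimulated response element, searched as GAAANNGAAA on either strand in the 250 bases before the annotated start (RefSeq, GRCm38.p6). It was present in 8 of the 16 genes with an entry (50.0%), against 3.29% of the 8671 tested genes with one. Within the list it was in 4 of the 8 that fell and in 1 of the 2 that rose. The list is one of interferon targets, so its excess over all genes describes the list and not the response to DFMO. A match is a description of the letters, not of a bound site. Stretches around it are shown for Stat2 and for Isg15, the latter chosen after its values were seen because it carries 3 overlapping matches. Capitals mark the matches, and each stretch is on the gene's strand. Isg15, which encodes a ubiquitin-like modifier, was at 2.90, 13.6, 1.58 and 12.5 CPM in ctrl and at 0.767, 2.97, 0.902 and 4.52 CPM in DFMO (-1.74 ± 0.49), with animals 2 and 4 higher in each treatment. The Isg15 call was lost without ctrl replicate 2 (-1.20, edgeR adjusted p = 0.065).
Stat2, chr10:128270251-128270310, plus strand: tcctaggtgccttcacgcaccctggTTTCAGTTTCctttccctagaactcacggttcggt
Isg15, chr4:156200850-156200909, minus strand: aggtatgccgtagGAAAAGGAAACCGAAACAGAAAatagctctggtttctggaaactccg

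Across 42 pathway lists, 16 had more than 50% of their tested members called in 1 direction. The rises were in the machinery of protein synthesis, folding and degradation, in the respiratory chain, in DNA replication, in hypusine genes and in T helper cytokines (57.1% higher). The falls were in hypoxia, glycolysis, lipid metabolism, MHC class II and adhesion. The lists were written with earlier results of these data known and describe the genes in them.

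**Figure D4:**
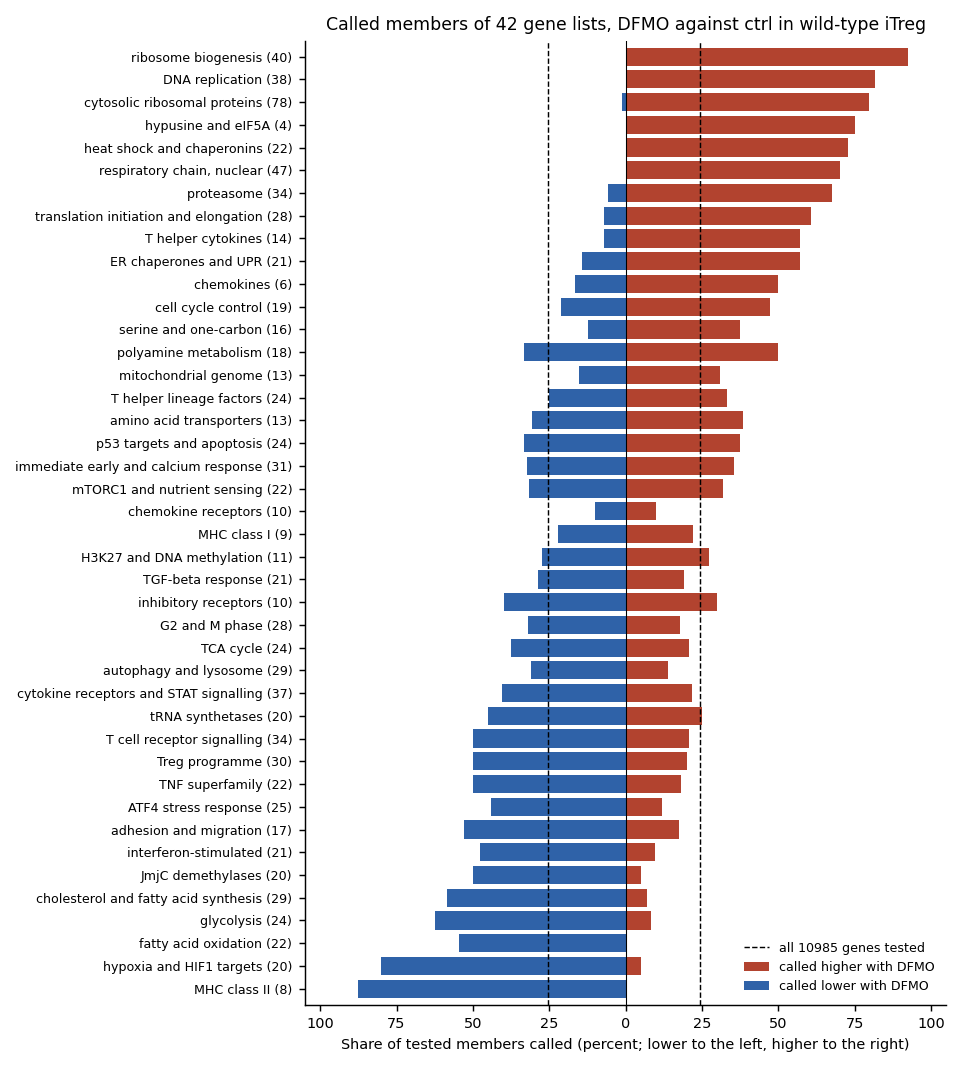
Percent of tested members called higher (red, to the right) or lower (blue, to the left) with DFMO in WT iTreg cells for each of 42 pathway lists, with the number of tested members in brackets and the shares over all genes (24.2% higher, 25.4% lower) as dashed lines. Ribosome biogenesis, DNA replication and ribosomal proteins lie at the end of the rises, and MHC class II and hypoxia at the end of the falls.

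Ribosome biogenesis genes rose. Of 40 genes 37 rose, 3 were not called and 0 fell, with a median of 0.73, and on TPM 25 rose and 2 fell. Fbl, the gene of the rRNA methyltransferase fibrillarin, was at 28.3, 41.1, 43.4 and 25.1 CPM in ctrl and at 163, 205, 228 and 98.7 CPM in DFMO (2.32 ± 0.18). All DFMO libraries were higher, animal 4 least. Nop56 and Nolc1, nucleolar genes of snoRNA particles, rose 2.20-fold and 2.46-fold, and Dkc1, Nhp2 and Nop10, which form the pseudouridylation complex, rose 2.23-fold, 2.14-fold and 1.89-fold. The E-box CACGTG, the motif bound by MYC, was searched in the 250 bases before the start. It was present in 2 of the 34 genes with an entry (5.88%), against 9.98% of all tested genes with one. Fbl had no entry. Bases after the start were not searched, so the count says nothing on sites there, and a match describes letters and not a bound site.

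Of 78 cytosolic ribosomal protein genes 62 rose and 1 fell, with a median of 0.30. On TPM 27 rose and 7 fell. As a share of TPM, these genes took 31.3%, 31.2%, 34.1% and 34.3% in ctrl animals 1 to 4 and 35.3%, 32.3%, 36.9% and 36.8% in DFMO. The share was higher with DFMO within each animal, while the groups overlapped. Rplp2, a stalk protein gene, rose 1.70-fold, whereas Rpl12 fell by 0.37 ± 0.09. Ribosomal protein genes have many processed pseudogenes, so the division of reads among near-identical copies is uncertain for them.

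Translation factors followed. Of 28 genes 17 rose and 2 fell. Eif4g1, the scaffold of the cap-binding complex, went from 93.7 to 115 CPM to 193 to 235 CPM (1.06 ± 0.07), and the elongation factor gene Eef1d rose 1.76-fold. Heat shock and chaperonin genes rose in 16 of 22 cases and fell in 0, among them Hsph1 (1.19 ± 0.08), Ahsa1 (0.92 ± 0.10) and the mitochondrial chaperonin gene Hspd1 (0.79 ± 0.07). Of 21 genes of endoplasmic reticulum folding 12 rose and 3 fell, among the former Calr (0.96 ± 0.07), Manf (0.94 ± 0.09) and Hspa5 (0.70 ± 0.09). Of 34 proteasome genes 23 rose and 2 fell, led by Psmc4 (1.96-fold) and Psmd7 (1.73-fold). On TPM 14 proteasome genes rose and 6 fell.

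Targets of the amino acid stress factor ATF4 ran the other way. Of 25 tested genes 11 fell and 3 rose, with a median of -0.23. Ddit3, which encodes the stress factor CHOP, was at 103, 94.1, 108 and 114 CPM in ctrl and at 32.2, 24.3, 37.6 and 50.1 CPM in DFMO (-1.56 ± 0.12). Trib3, a pseudokinase gene induced with it, went from 84.2, 61.3, 99.5 and 72.5 CPM to 21.7, 24.3, 34.9 and 32.7 CPM (-1.48 ± 0.16). Ctrl and DFMO libraries were apart in both. Asns, the asparagine synthetase gene, fell 1.70-fold and Cth, of cysteine synthesis, fell 3.04-fold. Of 20 tRNA synthetase genes 9 fell and 5 rose, Sars falling 1.63-fold.

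Hypoxia genes, most of them targets of the factor HIF-1, fell. Of 20 tested genes 16 fell (80.0%) and 1 rose, with a median of -0.97. Bnip3, a mitophagy receptor gene, was at 197, 157, 179 and 148 CPM in ctrl and at 37.6, 37.1, 47.8 and 39.3 CPM in DFMO (-2.08 ± 0.11). Ndrg1 went from 123, 84.2, 114 and 118 CPM to 22.0, 23.5, 23.2 and 22.9 CPM (-2.26 ± 0.16). In both genes the DFMO libraries were nearly equal and far below ctrl. Pdk1, which encodes a kinase that restrains pyruvate entry into mitochondria, fell 2.16-fold, Ero1l, an oxidase of disulfide formation, fell 3.56-fold, and Bnip3l and Pgm1 fell 2.30-fold and 2.22-fold. The exception was Adm, the adrenomedullin gene, which rose from 1.05 to 4.74 CPM to 6.90 to 15.6 CPM (1.92 ± 0.27).

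The core of the hypoxia response element was searched as ACGTG on either strand in the same 250 bases. It was present in 11 of the 17 hypoxia genes with an entry (64.7%), against 25.7% of the 8671 tested genes with one. Within the list it was in 9 of the 13 that fell and not in the 1 that rose. Most of the list are HIF-1 targets, so its excess over all genes describes the list and not the response to DFMO. ACGTG lies within CACGTG, so a match to the longer motif is also a match to the shorter. Stretches are shown for 3 genes with large falls. P4ha2, a collagen prolyl hydroxylase gene, and Car9, a carbonic anhydrase gene, were chosen after their values were seen. Capitals mark the match, which in Car9 is on the opposite strand and in Bnip3 on each strand. P4ha2 was at 32.0, 16.2, 22.4 and 19.2 CPM in ctrl and at 3.58, 4.16, 6.62 and 5.56 CPM in DFMO, and Car9 went from 5.34 to 9.76 CPM to 0.767 to 2.11 CPM.
Bnip3, chr7:138909584-138909638, minus strand: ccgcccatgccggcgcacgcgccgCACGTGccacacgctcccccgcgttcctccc
P4ha2, chr11:54100821-54100875, plus strand: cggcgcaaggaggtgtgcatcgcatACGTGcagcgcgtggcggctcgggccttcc
Car9, chr4:43506971-43507025, plus strand: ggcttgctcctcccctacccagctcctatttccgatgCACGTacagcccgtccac

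Glycolysis genes fell in 15 of 24 cases and rose in 2, with a median of -0.40. Slc2a3, a glucose transporter gene, was at 331, 113, 224 and 130 CPM in ctrl and at 49.9, 43.4, 53.8 and 40.7 CPM in DFMO (-2.05 ± 0.21). Ctrl libraries of animals 1 and 3 were above those of animals 2 and 4, and the DFMO libraries were alike. The phosphofructokinase genes Pfkm and Pfkp fell 2.77-fold and 1.91-fold, and the later enzyme genes Aldoa and Pgk1 fell 1.78-fold and 1.62-fold. Slc16a1, a lactate and pyruvate transporter gene, was among those that rose (1.64-fold).

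Lipid genes fell on the side of breakdown and on that of synthesis. Of 22 genes of fatty acid oxidation 12 fell and 0 rose, among them Acadl (2.12-fold) and Decr1 (2.18-fold). Of 29 tested genes of cholesterol and fatty acid synthesis 17 fell and 2 rose. Hmgcs1, an early enzyme gene of the sterol pathway, was at 348, 379, 344 and 336 CPM in ctrl and at 144, 218, 125 and 163 CPM in DFMO (-1.13 ± 0.10). Fdft1, the squalene synthase gene, fell 1.72-fold and Scd1, a fatty acid desaturase gene, fell 2.48-fold. Fasn, the fatty acid synthase gene, was among those that rose (1.62-fold).

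Respiratory chain genes of the nucleus rose in 33 of 47 cases and fell in 0, with a median of 0.37. Atp5g1 and Atp5g3, which encode the same ring subunit of ATP synthase, rose 1.88-fold and 1.64-fold. On TPM 21 of the list rose and 7 fell. Of 24 genes of the tricarboxylic acid cycle 5 rose and 9 fell, and on TPM 0 rose and 13 fell. Without DFMO replicate 3 or 4, or without ctrl replicate 1 or 2, 3 of them rose. Of the 13 genes of the mitochondrial genome 4 rose and 2 fell, with a median of 0.24, and after GC correction 8 rose and 2 fell, with a median of 0.51. On TPM 2 rose and 2 fell.

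DNA replication genes rose. Of 38 genes 31 rose and 0 fell, with a median of 0.35, and on TPM 13 rose and 1 fell. Rrm2, the ribonucleotide reductase subunit gene, was at 266, 241, 255 and 252 CPM in ctrl and at 537, 508, 482 and 504 CPM in DFMO (1.00 ± 0.08). Each animal was close to the others in both treatments. Fen1, the flap endonuclease gene, rose 2.18-fold, Dut, which clears dUTP, rose 2.01-fold and the helicase subunit gene Mcm2 rose 1.74-fold. Genes of G2 and M phase did not follow: of 28, 5 rose and 9 fell, with Cenpa, the centromeric histone gene, falling by 0.53 ± 0.09. Without DFMO replicate 1, or without ctrl replicate 3, 6 rose and 5 fell.

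Of 19 tested genes of cell cycle control 9 rose and 4 fell. Ccnd2, the cyclin D2 gene, was at 483, 556, 442 and 538 CPM in ctrl and at 1053, 984, 1081 and 921 CPM in DFMO (1.00 ± 0.08). E2f8 rose 2.06-fold, while the inhibitors of cell cycle entry Cdkn1b (p27) and Rbl2 (p130) fell 2.08-fold and 3.02-fold. Among 24 tested p53 targets and apoptosis genes 9 rose and 8 fell. Trp53 itself rose 1.84-fold and the pro-apoptotic gene Bax rose 1.75-fold, whereas the pro-apoptotic gene Bcl2l11 (BIM) fell 3.65-fold and Sesn1 fell 2.52-fold.

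Demethylases of the JmjC and TET kind, which use oxygen and 2-oxoglutarate, fell in 10 of 20 tested cases and rose in 1, with a median of -0.31. Kdm5b, an H3K4 demethylase gene, went from 50.5 to 62.6 CPM to 23.6 to 30.0 CPM (-1.07 ± 0.11), Kdm4c fell 2.12-fold and Tet2 fell 1.75-fold. Kdm6b (chromosome 11, 69398508 to 69413675, minus strand), which encodes JMJD3, was at 38.0, 48.8, 45.0 and 41.5 CPM in ctrl and at 41.9, 45.4, 59.2 and 49.7 CPM in DFMO (0.17 ± 0.13, edgeR adjusted p = 0.303). It was higher in 3 of 4 animals and the groups overlapped. Of 11 genes of H3K27 and DNA methylation 3 rose, namely Ezh2 (1.43-fold), Dnmt3a (1.62-fold) and Uhrf1 (1.72-fold), and 3 fell, among them Ezh1 (1.60-fold).

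The DFMO effect in iTreg cells was then set against that in Th17n cells of the same 4 animals, a comparison of libraries with shared animals but separate ctrl cultures. Of the iTreg calls, 4060 were also called in Th17n, which is 74.4% of the iTreg calls and 67.7% of the 5993 Th17n calls, and 3932 of these had the same sign. Over all genes tested, the Spearman correlation of the log2 fold changes was 0.738, across genes that are not independent replicates. The difference itself, tested as an interaction, passed for 1354 genes, 12.3% of those tested, with the effect more positive in iTreg for 826 (7.52%) and more negative for 528 (4.81%). That balance was not stable. Of 16 fits that each left out 1 WT library, 9 had more negative than positive differences, for example 499 positive and 602 negative without iTreg DFMO replicate 3 or 681 and 750 without iTreg DFMO replicate 2, while without iTreg DFMO replicate 1 the counts were 672 and 372. On TPM 299 were more positive and 1056 more negative.

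Regulatory and effector genes were prominent in the difference. Foxp3 rose with DFMO in Th17n, from 9.65 ± 3.72 to 37.1 ± 5.52 CPM (SD, n = 4), and stood far higher in iTreg cultures of either treatment (281 ± 64.8 and 233 ± 52.3 CPM). The iTreg effect on Foxp3 was lower by 2.20 ± 0.26 (edgeR adjusted p = 2.04e-06). Nrp1 and Ccl3 rose in both cultures and more in Th17n, with differences of -2.22 ± 0.31 and -2.66 ± 0.45. For Ctla4 the fall was larger in iTreg (-2.08 against -0.72; difference -1.37 ± 0.13). Tnfrsf9 fell more in Th17n (difference 1.10 ± 0.16). Of the 30 tested genes of the regulatory T cell programme, 10 had a more positive and 8 a more negative effect in iTreg (6 and 9 on TPM).

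Some genes moved in opposite directions. Adm, which rose in iTreg, fell in Th17n from 14.0 ± 5.14 to 1.62 ± 1.20 CPM (SD, n = 4; difference 4.98 ± 0.40). Crispld2, which encodes a secreted cysteine-rich protein, rose from 1.69 to 6.27 CPM to 8.02 to 13.5 CPM in iTreg, and fell from 173 ± 17.7 to 29.9 ± 4.58 CPM in Th17n (difference 4.04 ± 0.26). Fscn1, the actin-bundling fascin gene, rose 2.20-fold in iTreg and fell in Th17n (-1.72; difference 2.86 ± 0.42). Ccnd2 rose by 1.00 in iTreg and was at -0.40 in Th17n (difference 1.40 ± 0.11). Lif and Ltb rose in iTreg, whereas their log2 fold changes in Th17n were -0.39 and 0.10, and the differences were 1.42 ± 0.15 and 1.09 ± 0.14. Spib, with a log2 fold change of 0.13 in Th17n, and Il9, which rose in both, also had a more positive effect in iTreg, by 2.59 ± 0.72 and 1.49 ± 0.46. The difference for Il9 did not pass without iTreg ctrl replicate 1 (1.21) or 3 (1.05) or DFMO replicate 1 (1.48) or 2 (1.16), without Th17n ctrl replicate 1 (1.39) or 3 (1.05) or DFMO replicate 2 (1.35) or 3 (1.43), nor with DESeq2 or on TPM. That for Fscn1 did not pass on TPM (1.40), and that for Spib not without Th17n ctrl replicate 4 (2.36) or DFMO replicate 4 (2.04), nor without the block (2.57).

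Several lists held many genes whose effect differed between the cultures. Of the 78 ribosomal protein genes, 67 had a more positive effect in iTreg and 0 a more negative one. In Th17n 6 of them rose and 21 fell. The count of 67 was 33 to 65 when 1 library was left out, lowest without iTreg DFMO replicates 4 (33) and 3 (35) and ctrl replicates 2 (38), 1 (41) and 4 (42) and without Th17n ctrl replicate 1 (40) and DFMO replicate 3 (42). It was 43 with library medians aligned, 22 without the block and 8 on TPM, with 0 more negative in each of these settings. Eif5a also rose more in iTreg (0.96 against 0.43; difference 0.54 ± 0.06). Of 28 G2 and M phase genes, 18 rose and 0 fell in Th17n, and 19 had a more negative effect in iTreg. This count was 10 without iTreg DFMO replicate 1 and 13 to 23 without any other single library, 14 without the block and 10 with library medians aligned. For DNA replication 19 of 38 had a more negative effect in iTreg, Rrm2 among them (-0.77 ± 0.11). Of 25 ATF4 targets, 10 rose and 5 fell in Th17n and 9 had a more negative effect in iTreg, such as Trib3 (-1.30 ± 0.21) and Asns (-0.83 ± 0.11). The sterol and fatty acid list had 10 genes with a more negative effect in iTreg and 1 with a more positive one. Scd1 fell by 1.31 in iTreg and was at -0.20 in Th17n. For cytokine receptors and STAT signalling 15 of 37 effects were more positive in iTreg and 3 more negative (10 and 4 on TPM), and in Th17n 1 rose and 24 fell.

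**Figure D5:**
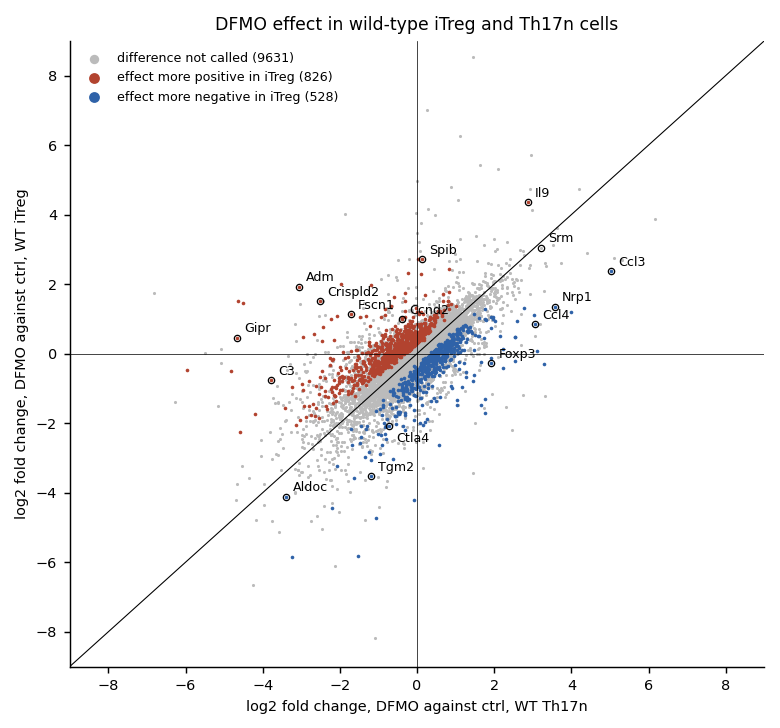
Log2 fold change of DFMO against ctrl in WT Th17n cells (horizontal) and WT iTreg cells (vertical), each point a gene tested, coloured where the difference between the effects passed the test (826 more positive in iTreg in red, 528 more negative in blue). The diagonal marks equal effects (Spearman 0.738 over all genes). Foxp3, Nrp1 and Ccl3 lie below it, and Crispld2 and Adm lie in the quadrant of a rise in iTreg and a fall in Th17n.

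The DFMO effect in WT iTreg cells was also set against that in KO iTreg cells, which come from other animals. Of the WT calls 3675 were called in KO, which is 67.3% of the WT calls and 82.0% of the 4482 KO calls, and 3670 had the same sign (Spearman 0.786 across genes). The difference passed for 57 genes, 0.519% of those tested, with 50 more positive in WT (0.455%) and 7 more negative (0.0637%). This count was unstable. It was 228 without WT DFMO replicate 2, 124 without WT DFMO replicate 4, 128 and 101 without WT ctrl replicates 2 and 4, and 22 to 36 without any of the other 10 libraries, and 318 with no filter on low counts.

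Rps2, a ribosomal protein gene with many pseudogenes, was at 1621, 2270, 1983 and 961 CPM in WT ctrl and at 6516, 5618, 7835 and 4525 CPM in WT DFMO. In KO it was at 4904 to 5629 CPM in ctrl and 5668 to 6574 CPM in DFMO, so KO ctrl libraries lay within the range of WT DFMO libraries (difference 1.64 ± 0.24). Over the 78 ribosomal protein genes, 11 rose and 6 fell in KO, with a median of 0.01 against 0.30 in WT, and the difference itself passed for 2 of them, both more positive in WT. Rnf187 went from 158 to 236 CPM to 447 to 505 CPM in KO (difference 2.24 ± 0.36), against 16.0 to 31.4 and 91.8 to 483 CPM in WT. B3gnt2, a glycosyltransferase gene, was at 14.7 to 42.5 CPM in WT ctrl against 75.7 to 89.3 CPM in KO ctrl, and at 85.5 to 116 and 92.5 to 101 CPM with DFMO. Plbd2, a lysosomal protein gene, had the same layout, with 11.5 to 30.0 CPM in WT ctrl and 52.6 to 75.3 CPM in KO ctrl. On TPM the difference for Rnf187 did not pass (1.88).

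That layout held over the 50 genes, which the test chose, so it is a description. Their median deviation from the gene's mean, in log2 CPM, was -0.80, -0.56, -0.73 and -1.30 in WT ctrl animals 1 to 4, 0.15 to 0.18 in KO ctrl, 0.34 to 0.39 in KO DFMO and 0.55, 0.45, 0.70 and 0.11 in WT DFMO. Animal 4 was lowest in each WT treatment. Their median GC content was 54.3% against 50.6% for all genes, and the part of GC content in the difference was not tested. Of the 50 genes 43 rose in WT and 12 in KO.

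Of the 7 genes with a more negative effect in WT, Ifngr1 fell in both genotypes, from 146 to 189 CPM to 34.8 to 43.9 CPM in WT and from 125 to 157 CPM to 58.1 to 75.2 CPM in KO (difference -1.09 ± 0.15). Sgk1, a kinase gene induced by salt and by growth signals, rose in both, from 39.2 to 61.5 CPM to 94.1 to 126 CPM in WT and from 11.6 to 28 CPM to 104 to 123 CPM in KO (difference -1.56 ± 0.23, not passed on TPM, -1.49). Lag3 fell less in WT than in KO (difference 1.06 ± 0.24, edgeR adjusted p = 0.0397), a call lost without DFMO WT replicate 1 (1.04) or 3 (0.98), ctrl WT replicate 1 (1.05) or 3 (0.98), ctrl KO replicate 1 (0.93) or 3 (0.92), DFMO KO replicate 1 (1.07), 2 (1.16) or 3 (0.98), without the block (1.09) and on TPM (0.69).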

How the data were processed

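The authors deposited an estimated count and a TPM per gene, made with kallisto on GRCm38, per the submitters' processing notes (version: not given in the sources used here). Whole numbers, within 0.001, made up 67.2% of the authors' estimated counts. Deposited TPM values summed to 863920 to 886579 per library. Counts were rounded and fitted in edgeR 4.0.16 (R 4.3.3, limma 3.58.1) with 8 group means and animal as a block over 28 libraries (15 residual degrees of freedom), TMM scaling and edgeR's filter on low counts. TPM was tested with limma on log2(TPM + 1), a scale that understates changes of low genes. The numbers are animal labels, and same-animal deviations correlated at 0.186, 0.313, 0.189 and 0.241. Counts were simulated over 10985 genes with changes of 1.5-, 2- and 4-fold in 60, 69 and 71 genes and no other DFMO effect. Of these changes, 40.0%, 75.4% and 95.8% were found again for DFMO in WT iTreg, with 9 false calls. The data had calls for 49.7% of genes, so these rates do not carry over to the calls above. Strand was not used, so antisense and overlapping genes cannot be told apart.

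The members, gene lists (1108 of 1123 entries matched) and tests were chosen with earlier results of these data known. Named genes were polyamine, Treg and Th17 genes always reported, the 12 largest rises and falls (mean of at least 10 CPM, same direction in 4 animals), the 6 largest differences each way, and up to 6 members per list of smallest adjusted p plus members against the majority. Not all of these are described, and a few are not reported here. Promoter letters came from RefSeq (GRCm38.p6). Gene positions came from GENCODE M21 (GRCm38). Alternatives were no block, another block, 8 libraries, RLE scaling, DESeq2 1.42.0, no filter, TPM with pseudocounts 1 and 0.1, each library left out and animal 4 left out. A GC correction with the block and TPM aligned on library medians were chosen after seeing the data.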

Additional observations from a re-analysis of the deposited data

Results flagged for a closer look

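In 10 groups of 4 libraries, 1 library stood apart from the other 3 by Dixon's criterion, which chance meets in about 1 group in 20. The check covered the ctrl and the DFMO groups of the genes named in the text, so some flags are expected by chance alone. Whether the 10 flags exceed that number was not tested. In ctrl these were Paox (45.8 CPM in replicate 3, others 31.7 to 33.6), Dhps (44.1 in replicate 2, others 50.0 to 51.1), Rnf187 (16.0 in replicate 4, others 29.7 to 31.4), Hsph1 (143 in replicate 3, others 130 to 131) and Pgk1 (4138 in replicate 4, others 3095 to 3166). Il17a (0.988 in replicate 2), Il23r (0.263 in replicate 3) and Ccl22 (0.484 in replicate 1) had counts in that ctrl library only. Where the other libraries are at 0, any count meets the criterion, so the chance rate above does not apply to these genes. In DFMO they were Tigit (9.38 in replicate 4, others 5.37 to 5.71) and Eif4g1 (193 in replicate 4, others 231 to 235).

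The DFMO effect differed between iTreg and Th17n cells of WT animals, by the interaction test, for 58 genes named above. Values are the iTreg effect minus the Th17n effect on the log2 scale. Among polyamine genes they were -0.37 for Sat1, -0.71 for Azin1 and 0.54 for Eif5a. Among regulatory T cell genes the difference was -2.20 for Foxp3, 0.60 for Il2ra, -1.37 for Ctla4, 1.10 for Tnfrsf9, 0.65 for Tnfrsf18, -1.08 for Nt5e, -2.22 for Nrp1, -0.93 for Socs2, 0.81 for Ccr4, 1.19 for Lrrc32 and -0.89 for Ikzf2. Cytokine and chemokine genes gave 1.49 for Il9, -2.66 for Ccl3, -2.20 for Ccl4, 1.09 for Ltb and 1.42 for Lif. Lineage factors gave 2.59 for Spib, 0.70 for Batf3, 0.99 for Satb1 and -0.86 for Tox.

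Of the genes with large falls, the difference was -0.70 for Aldoc, -2.32 for Tgm2, -0.92 for Arrb1 and -1.10 for Angptl6. Class II genes were at -1.17 for H2-Ab1, -1.60 for H2-DMb2 and -1.89 for H2-Eb1. Signalling genes were at -0.40 for Bhlhe40, -0.64 for Ifngr1, 0.56 for Socs1, 0.49 for Il2rg, 0.88 for Cblb, -0.38 for Cd28, -0.60 for Pdcd1, -1.12 for Dusp4, -0.91 for Cd69 and 1.10 for Irf1. Genes of ribosomes and stress responses were at -0.33 for Nop56, 0.53 for Rplp2, -0.83 for Asns, -0.91 for Ddit3 and -1.30 for Trib3.

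Metabolic genes differed by -0.78 for Bnip3, 0.41 for Bnip3l, 4.98 for Adm, -0.77 for Hmgcs1, -1.11 for Scd1 and -0.33 for Fasn. Genes of the cell cycle and chromatin differed by -0.77 for Rrm2, -0.40 for Mcm2, 1.40 for Ccnd2, -0.87 for E2f8 and 0.61 for Tet2, and Crispld2 and Fscn1 by 4.04 and 2.86.

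Of these 58 calls, 35 passed in all fits that left out 1 WT library and under the other alternatives, 15 were lost without at least 1 of the 16 libraries, and 8 were lost under other alternatives only. Calls lost without many single libraries were Aldoc (10 of 16, -1.02 to -0.61), Batf3 (10, 0.50 to 0.80), Bnip3l (10, 0.27 to 0.47), Il9 (8, 1.05 to 2.03), Irf1 (8, 0.85 to 1.31) and Ikzf2 (7, -1.17 to -0.74), where the ranges cover all 16 such fits. Batf3 was also lost with DESeq2 (0.69), with GC correction (0.62), with no filter (0.64), without the block (0.69) and on TPM (0.40), and Bnip3l with no filter (0.35) and on TPM (0.04).

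Without iTreg DFMO replicate 1 the calls of Sat1 (-0.35), Cd28 (-0.36), Fasn (-0.32), Mcm2 (-0.36), Nop56 (-0.34) and H2-Eb1 (-1.64) were lost. Without iTreg ctrl replicate 3 those of Azin1 (-0.67), Cd28 (-0.39), Fasn (-0.30), Mcm2 (-0.36) and Nop56 (-0.33) were. Arrb1 was lost without iTreg DFMO replicate 3 (-0.91) or 4 (-0.78), iTreg ctrl replicate 1 (-0.83) or Th17n DFMO replicate 4 (-0.83). Without Th17n DFMO replicate 1 Sat1 (-0.35), Cd28 (-0.39), Nop56 (-0.35) and H2-Eb1 (-1.62) were lost, and without DFMO replicate 4 Azin1 (-0.56), Fasn (-0.32) and Spib (2.04). Without Th17n ctrl replicate 2 Azin1 (-0.58), Sat1 (-0.37), Cd28 (-0.32), Mcm2 (-0.39) and Nop56 (-0.32) were lost, without ctrl replicate 3 Sat1 (-0.36), Fasn (-0.30), Mcm2 (-0.36) and Nop56 (-0.27), and without ctrl replicate 4 Sat1 (-0.36), Fasn (-0.29), Mcm2 (-0.36) and Spib (2.36).

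Without the block the calls of Aldoc (-0.71), Arrb1 (-0.92), Azin1 (-0.71), Cd28 (-0.38), Fasn (-0.32), Ikzf2 (-0.92), Irf1 (1.09), Mcm2 (-0.39), Nop56 (-0.32), Rplp2 (0.53) and Spib (2.57) were lost, and Sat1 was lost with GC correction (-0.31). On TPM with a pseudocount of 1, Arrb1 (-0.25), Azin1 (-0.77), Fasn (-0.45), Ikzf2 (-0.58), Irf1 (1.04), Il9 (1.39), Cblb (0.56), Fscn1 (1.40), Lrrc32 (0.58), Rplp2 (0.24), Socs1 (0.28) and Tet2 (-0.23) did not pass. With library medians aligned Aldoc (-0.45), Arrb1 (-0.04), Azin1 (-0.56), Batf3 (0.61), Bnip3l (0.25), Cd28 (-0.39) and Fasn (-0.24) did not pass. In the same setting Ikzf2 (-0.38), Il9 (1.60), Irf1 (1.25), Lrrc32 (0.79), Nt5e (-0.93) and Tet2 (-0.02) did not pass either. With a pseudocount of 0.1 Satb1 (0.53) did not pass, nor did any gene lost with a pseudocount of 1.

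Between WT and KO iTreg cells the DFMO effect differed for 8 genes named above. The WT effect minus the KO effect was 1.06 for Lag3, 2.24 for Rnf187, -1.09 for Ifngr1, 1.26 for Ier2, 1.64 for Rps2, 1.52 for B3gnt2, 1.56 for Plbd2 and -1.56 for Sgk1. WT and KO cells came from different animals. Of these 8 calls 4 passed under every alternative run. Lag3 was lost without 9 of 14 libraries (0.92 to 1.34 over the 14 fits) and, like Rnf187 (1.88), Ier2 (1.16) and Sgk1 (-1.49), on TPM with a pseudocount of 1.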

How the results depend on the processing

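For DFMO in WT iTreg, the total of 5458 calls stayed within 1.5 times under every alternative run, at 4916 to 5291 with 1 library left out (2358 to 2517 higher, 2462 to 2774 lower). Without the replicate block 2540 genes rose and 2674 fell, with a block per animal and differentiation 2846 and 2981. On TPM 1417 rose with a pseudocount of 1 and 1385 with 0.1, and with library medians aligned 1812 fell. The number of lists with more than 50% called in 1 direction was 14 to 16 with 1 library left out. The cause of each change below was not tested.

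The difference from Th17n was called for 1044 to 1431 genes with 1 library left out (499 to 733 more positive, 372 to 750 more negative), for 839 with medians aligned (541 and 298), and split as 299 and 1056 on TPM with a pseudocount of 1 and as 214 and 988 with 0.1. The difference from KO was called for 22 to 228 genes with 1 library left out (18 to 164 and 2 to 64). With DESeq2 it was called for 191 (155 and 36), with no filter for 318 (213 and 105), without the replicate block for 27 (24 and 3) and with the replicate block per animal and differentiation for 343 (242 and 101). On TPM these were 30 (11 and 19) with a pseudocount of 1, 32 (12 and 20) with 0.1 and 35 (24 and 11) with medians aligned, and 15 were more negative after GC correction.

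List balances that turned, as higher and lower, were immediate early genes with DESeq2 (9 and 10), on TPM (7 and 11 with a pseudocount of 1, 7 and 12 with 0.1) and without DFMO replicate 2 (8 and 9) or ctrl replicate 2 (8 and 10). On TPM polyamine genes (4 and 6), lineage factors (5 and 7, or 5 and 6 with 0.1), amino acid transporters (2 and 5) and p53 targets (4 and 9) turned. TGF-beta genes did so with medians aligned and on the 8 libraries (4 and 2 each), inhibitory receptors with medians aligned (4 and 3), and G2 and M phase without DFMO replicate 1 or ctrl replicate 3 (6 and 5 each). Single values that changed sign were Odc1 (-0.01) and Kdm6b (-0.01) on TPM, Il2ra on TPM (-0.34) and with medians aligned (-0.09), Il17a with medians aligned (0.02) and with 1 library left out (-4.04 to 0.02, the latter without ctrl replicate 2), Il23r with medians aligned (0.22) and with 1 library left out (-1.91 to 0.01, the latter without ctrl replicate 3), and the Tet2 difference from Th17n on TPM (-0.23, or -0.27 with 0.1) and with medians aligned (-0.02). At these depths genes with few counts, such as Il17a, allow no statement on size.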

Other observations

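Amino acid transporter genes were split with DFMO in WT iTreg cells: of 13 tested, 5 rose and 4 fell, with a median of 0.06. Of 16 tested genes of serine and folate metabolism 6 rose and 2 fell (0 fell without ctrl replicate 3 or without the block), and of 29 tested genes of autophagy and lysosomes 4 rose and 9 fell (2 and 15 on TPM). Of 17 tested adhesion and migration genes 9 fell and 3 rose. Of 22 tested genes of mTORC1 and nutrient sensing 7 rose and 7 fell, but 1 rose and 6 fell on TPM, 2 and 3 with library medians aligned and 4 and 6 without animal 4, and the 7 rises became 4 without DFMO replicate 2 or 3 or ctrl replicate 2 and 3 without ctrl replicate 4. Of 9 tested genes of MHC class I 2 rose and 2 fell, and 1 rose and 5 fell on TPM.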
